A study of Mus musculus with 6 samples.

Results

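Bone morphogenetic proteins (BMPs) are secreted growth factors, and this group of genes takes in 4 of them (Bmp2, Bmp4, Bmp5 and Bmp7), the secreted BMP antagonist Grem1, 3 Id genes that BMP signalling switches on (Id1, Id2 and Id3) and the 2 inhibitory Smads that BMP signalling also induces and that restrain it (Smad6 and Smad7). The members were taken by gene name: every probe set whose array annotation names 1 gene, and that gene is one of the 10. This gave 17 of the 45037 non-control probe sets of the Affymetrix Mouse430_2 array, 1 to 3 per gene, which are shown without exception. Total RNA came from whole lungs of mouse embryos at E18.5. The study asks which lung genes depend on GATA6, a zinc finger transcription factor, and sets 3 arrays titled wild type (called WT 1, 2 and 3 here) against 3 titled GATA6 KO (KO 1, 2 and 3), a genotype also described as null. The labels name no strain, no Gata6 allele and no Cre driver, and do not say in which lung cells the gene was removed. They also do not say whether each array is 1 embryo, so the p-values measure the spread between these arrays, which may be technical in part.

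A BMP ligand binds paired type I and type II receptors, which phosphorylate Smad1, Smad5 and Smad9. These join Smad4, enter the nucleus and switch on targets such as the Id genes, whose products lack a DNA-binding region and hold basic helix-loop-helix transcription factors in inactive pairs. Smad6 and Smad7 close a negative feedback loop, and Grem1 captures ligands outside the cell. In the developing lung, Bmp4 is known for its expression in the distal epithelial buds, and Id2 as a marker of distal tip progenitor cells.

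All levels below are log2 of the deposited probe set intensity after adding 16, and a difference is the mean of the arrays labelled KO minus that of the arrays labelled WT on this scale. A probe set was called bright where the mean of at least 1 group reached 6.88, the median over the 18193 named genes, and dim otherwise. Levels of different probe sets are not compared, because each responds to RNA in its own way. The median raw intensity per array lay between 20.5 and 23.9, and with so few arrays every value is imprecise. Fluidics station 1 washed WT 1 and WT 2, and station 2 washed WT 3 together with KO 1, KO 2 and KO 3. The arrays named WT 1, KO 2 and KO 3 carried more signal on bright unnamed probe sets than the others: their median relative to bright named ones was -0.23, -0.46 and -0.03 log2, against -1.02, -0.94 and -0.96 in WT 2, WT 3 and KO 1. Some markers of lung cells read well above the threshold on every array. Ager of alveolar type I cells read at least 14.32, Scgb1a1 of club cells at least 14.23 and Tcf21 of lung mesenchyme at least 14.29. Sftpc of alveolar type II cells read 12.71 in KO 1 and 15.4 to 15.8 on the other arrays. Other markers did not: Nkx2-1, Etv4 and Fgf10 were dim, and Abca3 of alveolar type II cells read 6.12 in KO 3.

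The targeted gene was not lower where its loss is labelled. The brightest Gata6 probe set read 11.12, 10.26 and 10.42 in WT 1 to 3 and 11.58, 11.39 and 11.19 in KO 1 to 3 (difference 0.79, SE 0.25, limma adjusted p = 0.963). The others, 1425463_at and 1443081_at, differed by 0.825 (SE 0.31) and 0.36 (SE 0.45). On the brightest and on 1425463_at every KO array lay above every WT array, against 4.65% of bright probe sets. Since the sources used here do not place the Gata6 probes relative to the deletion, these levels do not check the labels. Every direction below is one between arrays labelled KO and arrays labelled WT.

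Bright probe sets of the BMP ligands and Id genes read 1.25-fold to 1.62-fold higher in the lungs labelled KO, and those of the inhibitory Smads 1.06-fold to 1.21-fold. None of these differences passed a test over the whole array, and the genes were chosen with earlier results of these data known. With fluidics station as a term, which leaves KO against WT 3, the difference was 0.21 for Id1, -0.075 for Id3 and -0.18 for Smad6. The same term gave 0.72 for Bmp4 and 0.47 for Bmp2. By the brightest probe set it gave 0.48 for Id2, 0.37 for Bmp5 and 0.10 for Smad7. Of the 17 probe sets 15 read higher on average, against 63% of all probe sets. That share depends on scaling: it was 47.3% with quantile normalisation and 29.1% with median centring, where 2 and 4 of the 17 read lower. The 12 bright ones, each above the brightness threshold in both groups, all read higher, against 46.1% of bright probe sets. The median difference of the 12 was 0.38, beside -0.02 over all 16592 bright probe sets. Several of these probe sets report the same gene, so the 12 stand for 8 genes, and by the brightest probe set of each gene the median was 0.37.

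In limma 0 of the 17 probe sets passed an adjusted p of 0.05, and 0% of all 45037 did, the smallest adjusted p in the whole table being 0.0657. At an unadjusted p under 0.05 stood 1394 probe sets, of which 609 were higher (1.35%) and 785 lower (1.74%) in the arrays labelled KO. Among them were 5 of the 17, all higher: the brighter pair of the 3 probe sets for Id2, the dimmer pair of the 3 for Bmp5, and the 1 for Id1. They come from 3 genes, and among bright probe sets 2.38% lay that low and higher. In 4 of the 12 bright probe sets, those of Id2 and Bmp5 just named, every array labelled KO exceeded every array labelled WT, against 4.65% of bright probe sets. By the brightest probe set of each gene this held for 1 of the 8 bright genes, Id2, against 5.28% of bright genes. Counted the same way, 2 of the 10 genes, Id1 and Id2, were higher at an unadjusted limma p under 0.05, against 1.88% of all genes. In 0 of the 17 did every array labelled KO lie below every WT array, against 2.76% of all probe sets.

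**Figure D1:**
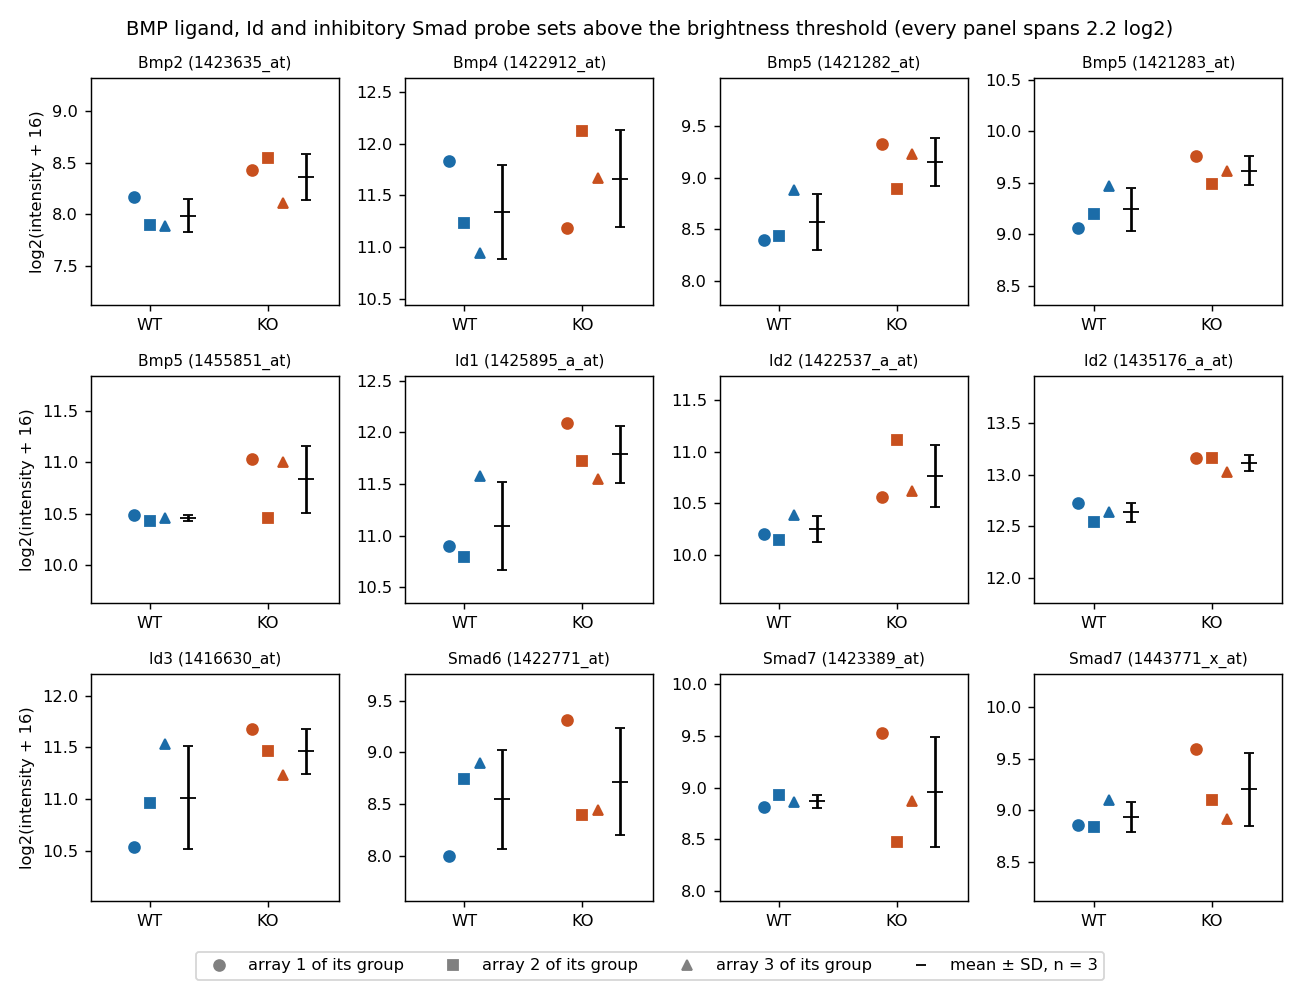
The 12 bright probe sets of the BMP ligands, Id genes and inhibitory Smads, with log2(intensity + 16) on the y axis and every array as a point; bars are mean ± SD over 3 arrays, and each panel spans the same number of log2 units. The points of the arrays labelled KO clear those labelled WT for the 2 Id2 probe sets and, by a small margin, for 2 of the 3 Bmp5 probe sets, while Bmp4, Smad6 and Smad7 overlap widely.

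Among the ligands, Bmp5 was the 1 with probe sets above the brightness threshold whose arrays did not overlap between KO and WT. Its probe set 1421282_at read 8.39, 8.44 and 8.88 in WT 1 to 3 and 9.33, 8.89 and 9.23 in KO 1 to 3. The difference was 0.58 (SE 0.19, 95% interval 0.11 to 1.05), or 1.49-fold, with a limma adjusted p of 0.963. The groups do not overlap, but WT 3 and KO 2 differ by less than 0.01 (8.880 and 8.888). Probe set 1421283_at read 9.07, 9.20 and 9.46 in the arrays labelled WT and 9.76, 9.49 and 9.62 in those labelled KO, again with WT 3 and KO 2 next to each other (difference 0.38, SE 0.14). The brightest, 1455851_at, read 10.49, 10.43 and 10.46 against 11.03, 10.46 and 11.00 (difference 0.37, SE 0.17). With station as a term, which leaves KO against WT 3, the differences of the first and second probe sets were 0.27 (SE 0.23) and 0.15 (SE 0.17), and that of 1455851_at was 0.37 (SE 0.26). On 1455851_at KO 1 and KO 3 stood above the tight WT group (SD 0.03), and KO 2 lay within it. Bmp5 is a ligand of the mesenchyme in several developing organs, the lung among them, and its 3 probe sets rank the arrays labelled KO alike, with KO 2 the lowest each time.

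Bmp2, a close relative of Bmp4, read 8.17, 7.90 and 7.89 in WT 1 to 3 and 8.43, 8.55 and 8.11 in KO 1 to 3. The difference was 0.37 (SE 0.17, 95% interval -0.04 to 0.79), with a limma adjusted p of 0.963. The groups overlap by 1 pair, since KO 3 lies just below WT 1.

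Bmp4 read 11.84, 11.23 and 10.94 in WT 1 to 3 and 11.19, 12.13 and 11.67 in KO 1 to 3. Its groups overlap widely, and its spread ran across the labels: WT 1, KO 2 and KO 3 were the 3 highest. These are the 3 arrays with more signal on bright unnamed probe sets. The difference of 0.32 (SE 0.32, 95% interval -0.47 to 1.12, limma adjusted p = 0.963) was about the size of its own error. It was 0.14 (SE 0.26) with that signal as a covariate, and 0.09 without KO 2 against 0.57 without WT 1. With station as a term, which leaves KO against WT 3, it was 0.72.

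Bmp7 and the antagonist Grem1 were at the floor of the arrays. The 3 Bmp7 probe sets read between 4.33 and 4.60 on all 6 arrays, which is an intensity of 4.09 to 8.22 where the lowest of any probe set was 2.04 to 2.07 per array. The single Grem1 probe set read between 4.42 and 4.45. Their differences lay between -0.03 and 0.01 log2. The dim probe set 1435479_at of Bmp7 had its 3 KO arrays above its 3 WT arrays, as 5.72% of all probe sets did, but by 4.36 to 4.37 against 4.34 to 4.36. At such signals no statement on the level of either gene can be made, and a change in them was not detectable here.

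**Figure D2:**
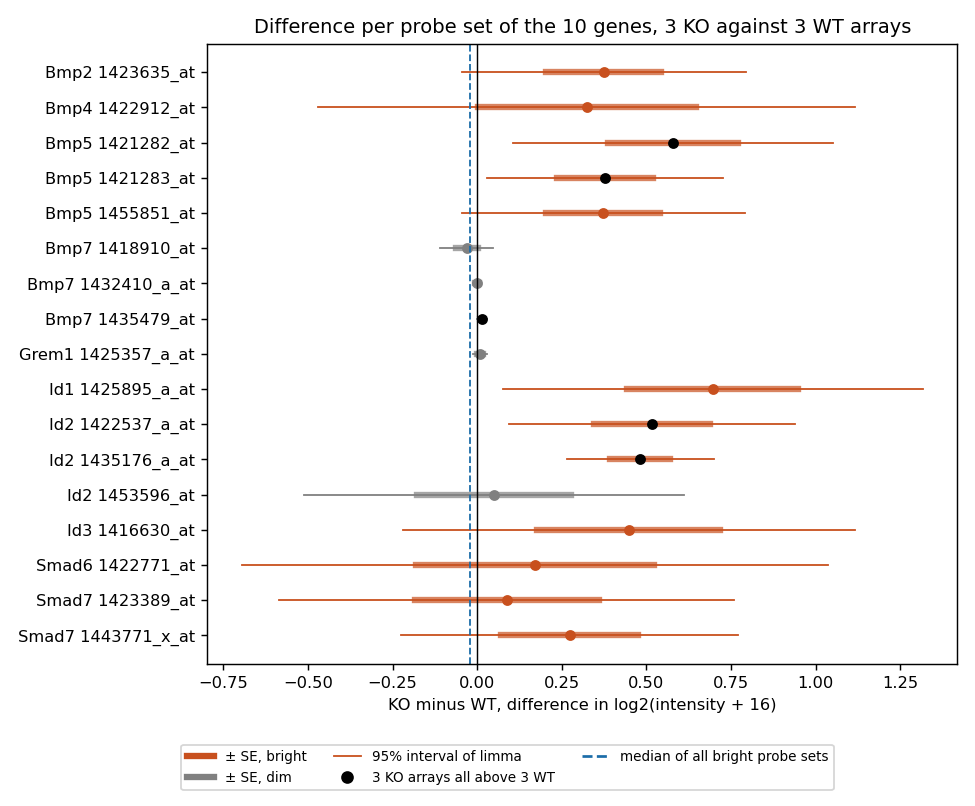
KO minus WT difference in log2(intensity + 16) for all 17 probe sets; thick bars are ± SE and thin bars the 95% interval from limma over 3 arrays a group, and grey marks dim probe sets. All 12 bright probe sets lie right of 0 and of the median of all bright probe sets (-0.02), and the Id2 probe set 1435176_a_at has the narrowest interval among them, 0.26 to 0.70.

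The Id genes, which are direct readouts of BMP signalling in many cells, read higher as well, and Id2 did so with the least spread. The brightest Id2 probe set, 1435176_a_at, read 12.73, 12.54 and 12.64 in WT 1 to 3 and 13.17, 13.16 and 13.03 in KO 1 to 3. With group means of 12.64 ± 0.09 and 13.12 ± 0.08 (SD, n = 3 each) it differed by 0.48 (SE 0.09, 95% interval 0.26 to 0.70), or 1.40-fold. The lowest array labelled KO lay above the highest labelled WT. Its unadjusted p was 0.00175, the smallest of the 17, and its limma adjusted p 0.963. The second probe set, 1422537_a_at, read 10.21, 10.15 and 10.39 against 10.57, 11.11 and 10.62, a difference of 0.52 (SE 0.17), and its groups did not overlap either. Here KO 2 was the highest. The third, 1453596_at, was dim, at 5.15 to 5.74 in the arrays labelled WT and 5.14 to 5.70 in those labelled KO, and showed no such shift (difference 0.05, SE 0.23, 95% interval -0.51 to 0.61). WT 1 and KO 2 were its highest arrays, and the groups overlap.

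Id1 read 10.90, 10.80 and 11.58 in WT 1 to 3 and 12.09, 11.72 and 11.55 in KO 1 to 3. The difference of 0.70 (SE 0.25, 95% interval 0.07 to 1.32), or 1.62-fold, was the largest of the 17, with a limma adjusted p of 0.963. The overlap rests on WT 3, which read like the arrays labelled KO and just above KO 3. Id3 read 10.54, 10.97 and 11.54 in the arrays labelled WT and 11.68, 11.47 and 11.24 in those labelled KO (difference 0.45, SE 0.27, 95% interval -0.22 to 1.12). Here too WT 3 lay among the arrays labelled KO, above KO 2 and KO 3. WT 3 is also the 1 array labelled WT that was washed on station 2. With station as a term, which leaves KO against WT 3, the difference was 0.21 (SE 0.23) for Id1 and -0.07 (SE 0.25) for Id3, while for Id2 (1435176_a_at) it was 0.48 (SE 0.14). Without WT 3 the differences of Id1 and Id3 were 0.94 and 0.71, and without WT 1 they were 0.60 and 0.21. With the signal on bright unnamed probe sets as a covariate they were 0.81 (SE 0.24) and 0.61 (SE 0.2), each with a limma adjusted p of 0.75.

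Promoter sequence is shown for 3 of these genes: Id2, whose 2 bright probe sets separated the labels, Bmp5, for which 2 of 3 did, and Smad6, a feedback gene whose probe set did not. Each runs from 250 bases before the RefSeq transcription start to 20 bases after it (RefSeq, build GRCm38.p6), 5′ to 3′ on the gene's strand. Capitals mark a GC-rich word that BMP-activated Smad proteins can bind, GGCGCC and the related word GGAGCC, and the palindromic Smad box GTCTAGAC, all searched on both strands.
Id2, chr12:25096073-25096342, minus strand: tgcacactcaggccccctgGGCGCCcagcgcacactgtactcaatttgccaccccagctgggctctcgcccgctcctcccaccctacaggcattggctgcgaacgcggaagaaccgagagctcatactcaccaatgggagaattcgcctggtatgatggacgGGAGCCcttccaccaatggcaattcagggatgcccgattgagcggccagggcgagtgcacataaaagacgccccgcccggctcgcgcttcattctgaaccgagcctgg
Bmp5, chr9:75775115-75775384, plus strand: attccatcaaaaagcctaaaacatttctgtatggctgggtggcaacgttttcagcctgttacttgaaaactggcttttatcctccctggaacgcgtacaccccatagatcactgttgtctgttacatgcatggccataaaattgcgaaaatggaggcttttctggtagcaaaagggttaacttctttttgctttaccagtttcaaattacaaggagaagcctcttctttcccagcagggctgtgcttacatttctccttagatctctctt
Smad6, chr9:64022040-64022309, minus strand: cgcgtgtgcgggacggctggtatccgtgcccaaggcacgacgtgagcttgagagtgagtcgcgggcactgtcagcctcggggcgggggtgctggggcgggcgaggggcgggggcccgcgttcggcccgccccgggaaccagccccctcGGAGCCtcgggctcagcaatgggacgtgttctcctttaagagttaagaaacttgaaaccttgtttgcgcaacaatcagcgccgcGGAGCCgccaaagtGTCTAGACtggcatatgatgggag
RefSeq windows were found for 6 of the 10 genes, and for Id1, Bmp2, Bmp7 and Smad7 none was used here. Of the 6, Id2 and Smad6 each had 2 of the GC-rich words, Bmp4, Grem1 and Id3 had 1, and Bmp5 had 0, where 33.9% of all 32851 windows of this length hold at least 1. In Id2 they start 231 and 88 bases before the transcription start. The Smad box was in 1 of the 6, Smad6, across the transcription start, and in 0.183% of all windows. The word bound by GATA factors, GATA with an A or T before it and an A or G after it, was in 0 of the 6 on either strand and in 28.0% of all windows. GC content, which these words depend on, was 42.2% in the Bmp5 window and 61.9% to 71.5% in the other 5.

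The inhibitory Smads showed no difference between the labels beyond their spread. Smad6 read 8.0, 8.74 and 8.90 in WT 1 to 3 and 9.31, 8.40 and 8.44 in KO 1 to 3 (difference 0.17, SE 0.35, 95% interval -0.70 to 1.04). It was lowest in WT 1, KO 2 and KO 3, the reverse of Bmp4. With the signal on bright unnamed probe sets as a covariate its difference was 0.42 (SE 0.18, limma adjusted p = 0.75), and without KO 1 it was -0.13. Smad7 read 8.81, 8.93 and 8.86 against 9.53, 8.47 and 8.87 with probe set 1423389_at (difference 0.09, SE 0.27), and 8.86, 8.84 and 9.10 against 9.60, 9.10 and 8.92 with 1443771_x_at (difference 0.27, SE 0.20). An x in a probe set's name means that some probes may also match other transcripts. Both Smad7 probe sets had KO 1 highest, as did Smad6, and on 1423389_at KO 2 read below all 3 arrays labelled WT. Without KO 1 the Smad7 differences were -0.20 and 0.08.

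**Figure D3:**
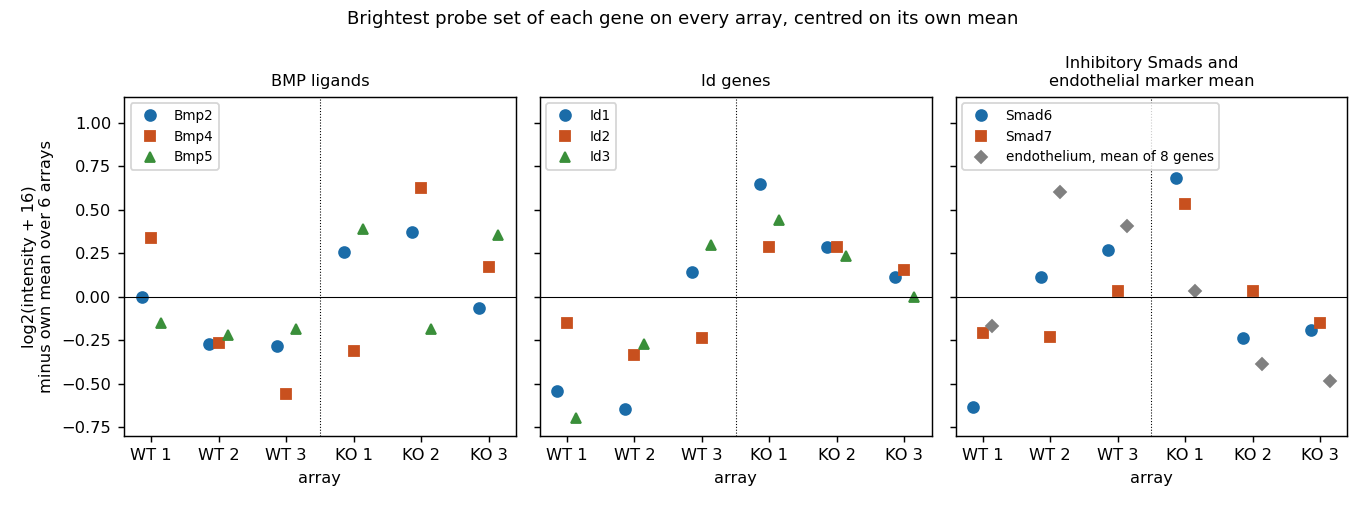
Level of the brightest probe set of each gene on every array, in log2(intensity + 16) minus the gene's own mean over 6 arrays; grey diamonds in the right panel are the mean of 8 endothelial marker genes. Id2 separates the labels, Id1 and Id3 place WT 3 with the arrays labelled KO, Bmp4 is highest in WT 1, KO 2 and KO 3, and KO 1 is the highest array for Smad6 and Smad7.

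KO 1 was the highest array for 9 of the 12 bright probe sets (those of Id1, Id3, Smad6 and Smad7, all 3 of Bmp5 and, by 0.005 over KO 2, the brightest of Id2). Several of these report the same gene. How often KO 1 was highest over all bright probe sets was not counted, so this may be a trait of the array. The same array had the lowest alveolar type I markers: the mean level of the 6 genes was 12.96, 12.97 and 12.69 in WT 1 to 3 and 10.39, 12.52 and 11.40 in KO 1 to 3. All 6 read lower in the arrays labelled KO, their summed intensity running from 64860 to 81040 in those labelled WT and from 29620 to 62460 in those labelled KO. The 8 endothelial markers, among them Pecam1 and Cdh5, also all read lower on average, with a summed intensity of 8948 to 13810 against 8113 to 9348, and 0 of them were dim. Their mean level was 9.83, 10.6 and 10.4 in WT 1 to 3 and 10.03, 9.61 and 9.51 in KO 1 to 3. It was lowest in WT 1, KO 2 and KO 3, as for Smad6, and KO 1 lay above WT 1. The 5 measured alveolar type II markers summed to 69870 to 83520 against 29110 to 86740, and 4 of them read lower. Sftpd read higher, by 0.99, with every KO array above every WT array. Conducting airway markers went the other way: 1 of 6 read lower, and for 3 every KO array lay above every WT array. Their summed intensity was 46890 to 76780 against 62430 to 67080. Every KO array lay below every WT array for 2 alveolar type I markers, 1 endothelial marker and 1 alveolar type II marker. Among all bright genes 5.28% had every KO array above every WT array and 6.27% below, and 45% read higher. Mesothelial markers, 4 of 5 lower and 1 dim (Wt1), summed to 14400 to 18950 against 11320 to 23080. The part of these cell types in the values of Bmp5, the Id genes and the Smads was not tested, and in RNA of a whole organ fewer cells of a type and less RNA per cell cannot be told apart.

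Of 56 other genes of the pathway, taken from a list of ligands, receptors, Smads, antagonists and targets, 51 had a probe set naming 1 gene, and 0 passed the test over the whole table. Their brightest probe sets split nearly evenly, 24 higher and 27 lower with a median of -0.01, against 58.4% higher and a median of 0.003 over all genes. The 30 bright ones counted 12 higher and 18 lower, where 45% of all bright genes read higher. At an unadjusted p under 0.05 in limma were 2 higher (Id4 and Bambi) and 1 lower (Fstl3), where 1.88% of all genes were higher and 2.42% lower. Among the 30 bright genes of the list, the arrays did not overlap for 2 higher, again Id4 and Bambi, and 2 lower, Fstl3 and Bmp6, against 5.28% and 6.27% of bright genes.

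Id4, the fourth Id gene, read 8.55, 8.87 and 9.06 in WT 1 to 3 and 9.57, 9.67 and 9.21 in KO 1 to 3. That is a difference of 0.66 (SE 0.19, limma adjusted p = 0.963), with every array labelled KO above every array labelled WT. Bambi, a decoy receptor that BMP signalling also induces, read 10.06, 9.87 and 9.85 against 10.13, 10.41 and 10.43 (difference 0.39, SE 0.12). Its groups are separate, by 0.07 between WT 1 and KO 1. Another inhibitor, Tob1, differed by 0.38 (SE 0.18). The 7 measured of 8 other target genes counted 4 higher and 3 lower (median 0.03), and Gata2 differed by -0.42 (SE 0.31). The 7 inhibitors inside the cell or in its membrane also counted 4 higher and 3 lower (median 0.04).

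Upstream of the targets, receptors and transducing Smads were mixed in direction. Most bright secreted antagonists and modulators read lower, some of them by less than their SE. Of 10 receptors and co-receptors 4 read higher and 6 lower (median -0.06), and of the 8 bright ones 3 and 5. The type II receptor gene Acvr2a differed by -0.30 (SE 0.15) and Eng, a co-receptor of endothelial cells, by -0.68 (SE 0.35), and neither passed. Of the 4 signal transducing Smads 2 read higher and 2 lower, with Smad4 at 0.13 (SE 0.15) and Smad5 at -0.17 (SE 0.15). Among 7 other measured ligands, Bmp6 was the 1 bright gene: it read 6.89, 7.43 and 6.78 against 6.67, 6.29 and 6.37 (difference -0.59, SE 0.26, limma adjusted p = 0.963), opposite to Bmp5 in direction, and its groups did not overlap. Gdf5, dim in both groups, differed by 0.20 (SE 0.16). Of 16 other secreted antagonists and modulators 6 read higher and 10 lower, and 9 of the 16 were dim. Of the 7 bright ones 1 read higher and 6 lower, with a median of -0.23. Of all bright genes 45% read higher, with a median of -0.03. Fstl3, which binds activins and some BMPs, read 8.06, 7.86 and 7.51 against 7.0, 7.37 and 6.91 (difference -0.72, SE 0.22, limma adjusted p = 0.963), with every KO array below every WT array. Its relative Fst, dim in both groups, differed by 0.69 (SE 0.38), with KO 1 at 6.39.

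**Figure D4:**
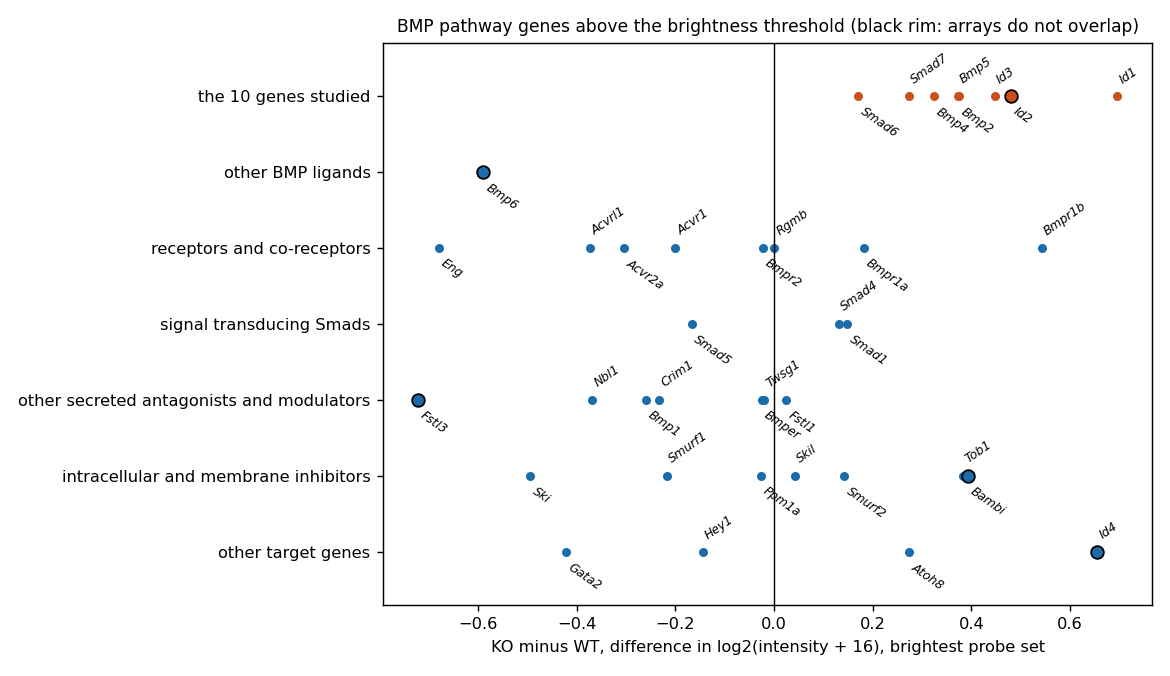
KO minus WT difference in log2(intensity + 16) of the brightest probe set of each bright gene, for the 10 genes studied (8 of them bright) and 6 lists of other BMP pathway genes; a black rim marks genes with no overlap of the KO and WT arrays. The 8 genes of the top line lie between 0.17 and 0.70, while the 30 bright genes of the other lists lie on both sides of 0. The genes of every line were chosen with earlier results of these data known, so the contrast is a description.

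The genes whose profile over the 6 arrays was nearest to that of each Id gene, by root mean square distance after centring each on its own mean, were found among 18183 other genes. For Id2 they were Coq8a (0.05 log2), Mrap (0.06) and Cutc (0.07), which separate the labels as Id2 does. For Id1 they were Pfn2 (0.10), Grip1 (0.11) and Nipsnap1 (0.12), and for Id3 Fbxo36 (0.08), Eno4 (0.09) and Hadh (0.09). All 6 of these hold WT 3 above their mean, as Id1 and Id3 do. Among the 8 bright genes of the group Id1 and Id3 were nearest to each other (0.20), and so were Id2 and Bmp2 (0.12). With so many genes and 6 arrays some will lie this near by their number alone, and the distances are a description.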

How the data were processed

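The values are linear probe set intensities as deposited by the authors, 1 per probe set and array. GCRMA and MAS5 both stand in the submitters' processing notes, without a role or order, and the step that gave these intensities is not stated there. The values were taken as already normalised to each other, with medians per array of 20.5 to 23.9. The table lists 45101 probe sets. After removal of 64 controls, 34945 named 1 gene (34741 through a current gene ID), 932 several and 9160 none here. Intensities were transformed to log2 after adding 16, with no filter, and a fold is on that scale. KO and WT arrays were compared by a linear model with moderated variances that follow the intensity (limma 3.58.1, R 4.3.3), giving two-sided p-values. Adjustment was by Benjamini-Hochberg over the 45037 non-control probe sets and a threshold of 0.05. Errors on differences are SE of that fit. The limma fit, and no other step, was tested on simulated data with independent noise, which hold no effect of fluidics station.

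The 10 genes, the gene lists and the tests were chosen with earlier results of these data known. The text names every probe set of the 10 genes, Gata6, per pathway list the 2 members with the smallest p where none pass, and the 3 genes nearest to Id1, Id2 and Id3. Tcf21, Ager, Scgb1a1, Sftpc, Sftpd, Abca3, Nkx2-1, Etv4, Fgf10, Pecam1, Cdh5 and Wt1 are named as markers. The lists of conducting airway, smooth muscle, mesenchyme, distal tip, heart and erythroid markers had 1 of 6, 6 of 6, 7 of 8, 4 of 6, 2 of 6 and 2 of 3 measured genes lower in the arrays labelled KO. Residuals of arrays with the same number correlated at -0.757, 0.02 and -0.483, so the numbers 1 to 3 were not taken as pairs. Alternatives were other eBayes settings, array weights, scaling, a filter on dim probe sets, 1 value per gene, pseudocounts of 1 and 64, leaving out each array, and terms for replicate number, fluidics station and signal on unnamed probe sets.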

Additional observations from a re-analysis of the deposited data

How the results depend on the processing

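No probe set of the 10 genes and none of the other pathway genes passed in limma under any of the 19 alternatives; the lowest adjusted p among the 17 probe sets, for Id2 (1435176_a_at), was 0.374, with array weights. Bmp2, Bmp4, Bmp5, Id1, the bright Id2 probe sets and Smad7 (1443771_x_at) kept their direction in all alternatives that gave them a value, and Id2 (1435176_a_at) ran from 0.35 to 0.59. With the replicate block, no paired call appeared and Id2 (1435176_a_at) was 0.48 (SE 0.12, limma adjusted p = 1); 0 of 6 arrays correlated best with their own number. Over the whole table, 1 probe set or gene passed with median centring, with the brightest probe set per gene and with the mean of probe sets per gene, and 37 with station as a term, where the arm labelled WT is 1 array; leaving out 1 array gave 0 to 0.

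The count of the 17 probe sets lower in the arrays labelled KO was 2; it was 0 with array weights, 4 with median centring, 0 with the filter on dim probe sets, 1 of 10 with either value per gene, 5 with station as a term, and 1 to 4 without 1 array. Signs turned for Id3 (-0.075) and Smad6 (-0.18) with station as a term. Without 1 array Smad6 ran from -0.128 to 0.345, Smad7 (1423389_at) from -0.198 to 0.33, and the dim Id2 probe set from -0.094 to 0.236. The latter was -0.075 with the covariate for unnamed probe sets. The other signs that turned belong to probe sets at the floor. Grem1 was -0.026 with median centring and 0 with station as a term. Bmp7 was 0.002 (1418910_at) and 0.003 (1432410_a_at) with array weights, -0.02 (1435479_at) with median centring and 0.002 (1432410_a_at) with the covariate, and without 1 array 1432410_a_at ran from -0.002 to 0.003. The cause of these turns was not tested. Signal near the floor limits what can be said of Bmp7 and Grem1.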
